A study of Mus musculus with 12 samples.

Results

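Integrins and their partners in leukocyte adhesion were followed as a set of 36 genes, picked by name out of the 41325 genes listed for each liver library. The set holds 8 leukocyte integrin chains, 18 chains that mainly bind matrix or platelet ligands, 7 adhesion molecules of the vessel wall, and Selplg, Cd44 and Alcam. Poly(A) RNA was sequenced from livers of wild-type C57BL/6J mice in 3 groups of 4 libraries. Control mice were given vehicle. The other two groups were fed CDAHFD, a choline-deficient, amino acid-defined, high-fat diet used to model non-alcoholic steatohepatitis (NASH), and were given either vehicle or CDDO-Me at 10 mg/kg. CDDO-Me (bardoxolone methyl) is a synthetic triterpenoid that activates the transcription factor NRF2, and the design text gives oral dosing for 8 weeks in the diet model. The diet of the control mice, the sex and the age are not given in the labels. The question put by the design was how the livers of NASH mice differed with and without CDDO-Me, and the control group gives the level without the diet.

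Integrins are paired receptors of an alpha and a beta chain that tie a cell to matrix or to a neighbouring cell. Leukocytes leaving the blood are slowed by selectins and then held by integrins that bind ICAM and VCAM molecules on the vessel wall. Hepatocytes, stellate cells, bile duct cells and endothelium carry other pairs that bind collagen, laminin, fibronectin or vitronectin, and some pairs with the alpha v chain release active TGF-beta from its latent form.

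Each library held between 28161057 and 33852338 reads assigned to genes. Levels are given below as CPM, the total gene reads (exon and intron) as counts per 1000000 reads after TMM scaling, a correction for library composition, and TPM is used where genes are compared with each other. The liver identity of the libraries was plain, with 8 hepatocyte markers summing to between 34960 and 106700 CPM and no marker at 0. These sums were 88110 to 106700 CPM in control, 34960 to 56570 CPM in NASH vehicle and 38330 to 56160 CPM with CDDO-Me. In the tests below all 8 were lower in NASH vehicle against control, where 30% of all tested genes were lower. With CDDO-Me against NASH vehicle 1 of the 8 was higher, where 9.39% of all tested genes were higher. Libraries with the same label differed in other cell types. Control replicate 3 had 263 CPM of summed smooth muscle markers where the rest of its group had 15.3 to 19.4, and 245 CPM of bile duct (cholangiocyte) markers against 33.0 to 54.6. The CDDO-Me library of replicate 4 had 105 CPM of smooth muscle markers against 22.8 to 37.6 in the rest of its group. Counts of members are therefore also given without both of these libraries, and some single results without either or both. The labels name separate livers only by replicate number, so p-values measure the spread between these libraries.

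Most of the measured adhesion genes were higher in NASH livers, and fewer moved with CDDO-Me. Of the 34 members with enough reads to be tested, 24 rose, 2 fell (Itga7 and Pecam1) and 8 did not pass in NASH vehicle against control, at an adjusted p under 0.05 (edgeR's quasi-likelihood fit, p-values adjusted by Benjamini-Hochberg over every tested gene). Over all 16456 genes tested in that comparison, 29.6% were higher and 30% lower, 59.7% in all. The median log2 fold change was 1.56 for the members and -0.01 for all tested genes. With CDDO-Me against NASH vehicle, 9 members fell, 1 rose (Pecam1) and 24 did not pass, where 7.24% of all tested genes were lower and 9.39% higher, 16.6% in all. The median was -0.47 for the members and -0.01 for all genes. CDDO-Me livers against control had 18 members higher, 1 lower (Itga7) and 15 not passing, beside 26.2% and 23.6% of all tested genes, 49.8% in all. These comparisons share groups, since NASH vehicle serves in the comparison with control and in that with CDDO-Me. Members with almost no control reads, such as Itga2 and Sele, entered the test through the NASH groups, so the counts describe the tested members and no more. Without control replicate 3 and CDDO-Me replicate 4 the counts were 25 higher and 1 lower, then 1 higher and 12 lower, then 20 higher and 1 lower. With library totals in place of TMM, which moves the median of all genes to 0.62 with NASH, they were 26 higher and 0 lower, then 1 and 9, then 25 and 1.

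**Figure D1:**
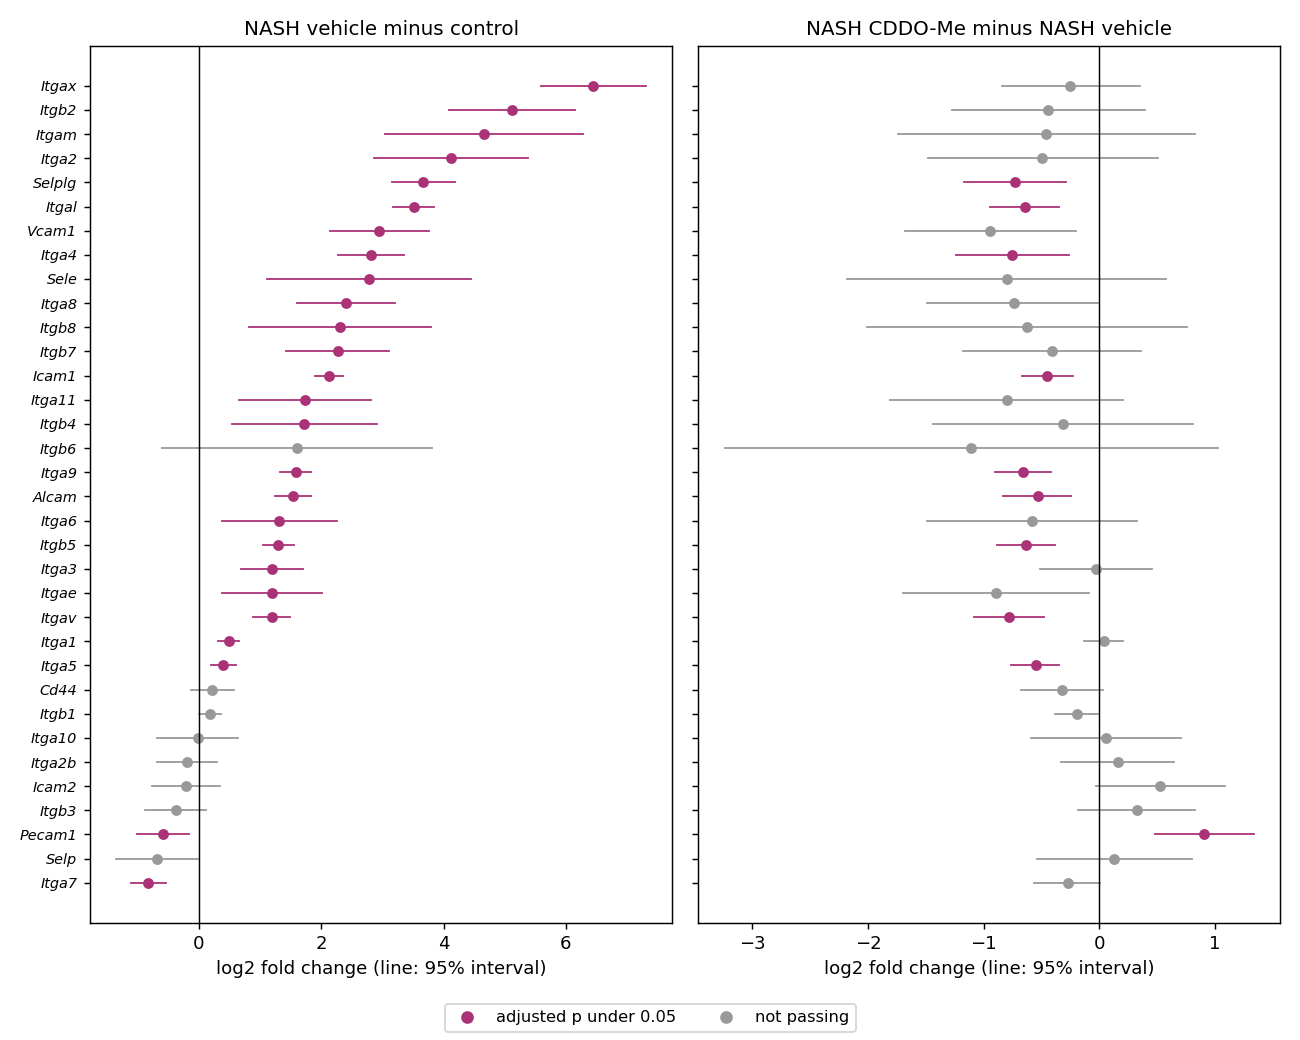
Log2 fold changes of the 34 tested members, in NASH vehicle against control on the left and in CDDO-Me against NASH vehicle on the right; points are estimates, lines 95% intervals, and colour marks an adjusted p under 0.05. Itgax, Itgb2 and Itgam lie at the top on the left with intervals that span 0 on the right, while Itga9, Alcam, Itgb5 and Itgav have short intervals clear of 0 in both panels.

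Among all members Itgax, Itgb2 and Itgam, of the beta2 class of leukocyte integrins, had the largest estimates in NASH vehicle against control. Itgb2 encodes the shared beta2 chain (CD18), and Itgal, Itgam, Itgax and Itgad encode the alpha chains that pair with it on lymphocytes, monocytes, macrophages, neutrophils and dendritic cells. Itgam (chr7:128062640-128118491), Itgax (chr7:128129547-128150657) and Itgad (chr7:128154376-128223816) are neighbours on the plus strand of GRCm38, and Itgal (chr7:127296260-127335138) lies in the same region. The bases just before the starts of Itgam, at chr7:128062390-128062629, and of Itgax, at chr7:128129300-128129539, are shown from RefSeq (GRCm38.p6, plus strand). These genes were picked because both rose with NASH in these data, and whether they share a control was not tested. Capitals mark GAGGAA, a core motif of the myeloid factor PU.1, in Itgam, and TGAGTCA, the AP-1 motif, in Itgax. Neither window held the motif marked in the other.
Itgam: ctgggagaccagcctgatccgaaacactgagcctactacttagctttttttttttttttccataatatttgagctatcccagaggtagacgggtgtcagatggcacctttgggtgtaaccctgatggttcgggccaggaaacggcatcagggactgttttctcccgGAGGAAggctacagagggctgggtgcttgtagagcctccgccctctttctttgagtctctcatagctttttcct
Itgax: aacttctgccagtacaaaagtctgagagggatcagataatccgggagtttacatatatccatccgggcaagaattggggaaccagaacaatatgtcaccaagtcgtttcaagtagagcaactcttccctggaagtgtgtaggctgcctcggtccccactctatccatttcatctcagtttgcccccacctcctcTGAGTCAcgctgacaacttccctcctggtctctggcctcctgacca
RefSeq starts were matched for 24 of the 36 members, giving 26 windows of 240 bases. GAGGAA, searched on both strands, was in 10 of these 26 windows and in 22.3% of all 32851 windows. TGAGTCA was in 2 (Itgax and Sele) and in 4.35% of all windows. A match describes letters in the window and not a bound site.

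Itgax, the chain known as CD11c, stood at 0.883, 0.646, 1.04 and 0.358 CPM in the control libraries. NASH vehicle livers held 42.3, 74.3, 67.3 and 78.5 CPM of Itgax, and CDDO-Me livers 54.9, 36.7, 42.7 and 86.9 CPM. Every NASH library was above every control library, and the groups with and without CDDO-Me overlapped, with CDDO-Me replicate 4 the highest of all. Itgax was higher by 6.45 ± 0.39 (log2 fold change ± SE, n = 4 in each group) in NASH vehicle against control, an 87.4-fold difference (adjusted p = 1.7e-07). With CDDO-Me it differed by -0.25 ± 0.27 from NASH vehicle (95% interval -0.84 to 0.35, adjusted p = 0.59), an interval that holds both no change and a fall.

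Itgb2, the partner chain of all 4, was at 3.23, 2.12, 8.58 and 3.62 CPM in control livers. It was at 96.0, 163, 162 and 199 CPM in NASH vehicle and at 114, 69.3, 94.6 and 180 CPM with CDDO-Me. As for Itgax, NASH and control did not overlap and the spread within the CDDO-Me group was wide. Here NASH vehicle replicate 4 was the highest library. Itgb2 rose by 5.12 ± 0.47 with NASH (adjusted p = 4e-06) and differed by -0.44 ± 0.38 with CDDO-Me (95% interval -1.27 to 0.40, adjusted p = 0.48). Without control replicate 3 and CDDO-Me replicate 4 the latter difference was -0.74 and passed (adjusted p = 0.046). That fit leaves out the highest CDDO-Me value, and it gave the largest fall and the lowest adjusted p of all settings tried. Over these settings the difference ran from -0.74 to -0.26, with adjusted p from 0.046 to 0.75.

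Itgam, which encodes CD11b, had 0.192, 0.646, 3.92 and 0.358 CPM in control, 18.9, 38.1, 37.8 and 39.6 in NASH vehicle, and 25.4, 12.5, 17.7 and 42.2 with CDDO-Me. Control replicate 3 was the highest control, and NASH vehicle replicate 1 the lowest of its group. The rise with NASH was 4.66 ± 0.74 (adjusted p = 0.00026), and the difference with CDDO-Me was -0.46 ± 0.58 (95% interval -1.74 to 0.83, adjusted p = 0.65). Only 5.77% of Itgam reads were unique to the gene, and Gm49368 overlaps it on the same strand. The part of this overlap in the low share was not tested. On the unique reads alone the Itgam fold changes were 5.40 and -0.28, on the same sides of the threshold.

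Itgal, the alpha chain of LFA-1 on lymphocytes, had the tightest values of the beta2 class. Its levels were 4.53, 4.57, 4.51 and 3.58 CPM in control, 39.6, 50.7, 50.5 and 55.0 in NASH vehicle, and 32.1, 24.4, 29.8 and 39.0 with CDDO-Me. None of the 3 groups overlapped another. Itgal rose by 3.51 ± 0.16 with NASH (adjusted p = 4.8e-09) and fell by 0.64 ± 0.14 with CDDO-Me, on the log2 scale (adjusted p = 0.0066). Itgad was nearly silent and was not tested. Its reads numbered 4, 0, 1 and 1 in control, 8, 7, 14 and 8 in NASH vehicle, and 6, 0, 7 and 4 with CDDO-Me.

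The make-up of the beta2 class differed between control and NASH livers when its alpha chains were compared by TPM, which corrects for gene length. Itgal supplied 40.9% to 77.3% of the summed TPM of the 4 alpha genes in control libraries, 25.5% to 32.9% in NASH vehicle and 18.4% to 27.3% with CDDO-Me. Itgax supplied 10.6% to 20.8%, 45.6% to 49.2% and 50.8% to 55.1% in the same order. Itgam supplied 4.52% to 48.45%, 21.3% to 27.2% and 18.3% to 27.2%. Both the lowest Itgal share and the highest Itgam share in control came from replicate 3, where Itgam led. Itgax was thus the main alpha chain of the class in all 8 NASH libraries and of none of the control libraries. Control shares rest on few reads, with a summed alpha TPM of 1.14 to 3.09 there against 32.0 to 96.4 in the NASH libraries. The ratio of Itgb2 TPM to that sum was 0.754 to 1.76 in control, 1.77 to 2.07 in NASH vehicle and 1.71 to 1.93 with CDDO-Me.

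The alpha4 and beta7 chains, which serve lymphocyte homing and pair with each other or with other chains, rose as well. Itga4, part of the VLA-4 receptor for VCAM-1, had 2.11, 1.94, 3.48 and 2.91 CPM in control, 13.4, 17.5, 19.5 and 23.01 in NASH vehicle, and 11.97, 8.46, 8.32 and 14.9 with CDDO-Me. NASH and control did not overlap, and CDDO-Me replicate 4 reached into the NASH vehicle range. Itga4 rose by 2.81 ± 0.25 (adjusted p = 9.5e-07) and fell by 0.75 ± 0.23 with CDDO-Me (adjusted p = 0.038). That second call was lost in 6 of the 12 fits that left out a library, with adjusted p up to 0.13 there, and with library totals (adjusted p = 0.054). Of the Itga4 reads, 58.6% were unique. Cerkl overlaps Itga4 on the other strand, and the strand setting of the counts is not known. Itgb7 went from 0.653 to 2.89 CPM in the controls to 5.28 to 10.4 CPM in NASH vehicle, a rise of 2.27 ± 0.39 (adjusted p = 0.00024), and from 4.27 to 7.68 CPM with CDDO-Me. Itgae, the CD103 chain that binds E-cadherin, was low throughout, at 0.369 to 1.04 CPM in control, 1.01 to 2.23 CPM in NASH vehicle and 0.632 to 1.12 CPM with CDDO-Me. Its rise with NASH was 1.20 ± 0.38 (adjusted p = 0.016) and did not pass on exon reads alone (adjusted p = 0.065) or without NASH vehicle replicate 4 (adjusted p = 0.061).

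**Figure D2:**
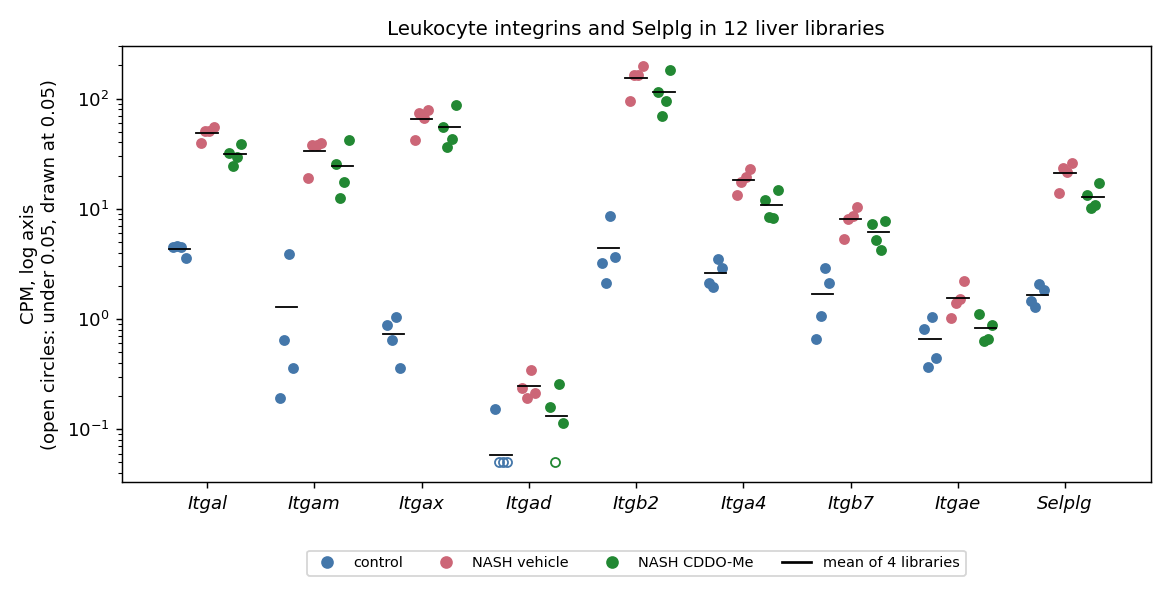
CPM on a log axis of the 8 leukocyte integrin chains and Selplg in 12 liver libraries, with a point for each library and a line at the group mean; open circles stand for values under 0.05. For Itgax and Itgb2 the NASH points lie far above the control points and the groups with and without CDDO-Me overlap, while for Itgal the 3 groups are apart.

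All 7 tested leukocyte integrins rose with NASH and 2 of the 7, Itgal and Itga4, fell with CDDO-Me. For these counts and those of the markers below, 29.6% of all tested genes were higher with NASH and 7.24% lower with CDDO-Me. Leukocyte markers moved alongside. In bulk liver RNA more cells of a type and more RNA per cell cannot be told apart. Of 11 macrophage markers 11 rose with NASH and 8 fell with CDDO-Me, and their summed level was 139 to 224 CPM in control, 1602 to 2991 CPM in NASH vehicle and 891 to 1566 CPM with CDDO-Me, with none at 0. Of 8 dendritic cell markers 7 rose and 2 fell, and their sum was 31.5 to 40.8, 175 to 351 and 135 to 179 CPM. Of 11 T and NK cell markers 10 rose and 3 fell. The marker that did not rise, Cd4, had a negative estimate with NASH (-0.84 ± 0.47, adjusted p = 0.14). Cd4 was also lower in CDDO-Me against control (-1.32 ± 0.48, adjusted p = 0.033). Of 8 neutrophil markers 5 were tested, and 5 rose with NASH and 1 fell with CDDO-Me. Of the untested neutrophil markers, Ly6g reached at most 0.073 CPM and Camp 0.507 CPM in any library, and both were at 0 in every control library. The part of these cells in the integrin values was not tested.

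Set against the macrophage markers, Itgax, Itgb2 and Itgal were higher in each CDDO-Me library than in each NASH vehicle library, while Itgam and Itga4 overlapped between these groups. Per 1000 CPM of summed macrophage markers there were 2.57 to 5.62 CPM of Itgax in control, 26.2 to 27.2 in NASH vehicle and 41.2 to 55.5 with CDDO-Me. Itgb2 gave 13.4 to 38.4, 59.5 to 66.4 and 77.8 to 115. The marker sum was lower in each CDDO-Me library (891 to 1566 CPM) than in each NASH vehicle library (1602 to 2991 CPM). A gene that fell less than the markers thus tends to a higher ratio. The share of all genes with such separate ratios was not counted. The levels of Itgax and Itgb2 themselves overlapped between these groups, and the level of Itgal fell with CDDO-Me. Itgal gave 20.2 to 28.8, 18.4 to 24.7 and 24.9 to 29.4, and Itga4 12.2 to 20.9, 6.38 to 8.36 and 8.22 to 9.94. Itgam gave 1.22 to 17.6, 11.8 to 14.9 and 14.03 to 26.96. In the group means, Lyz2 alone held 31.6 of 170 CPM of the marker sum in control. It held 1124 of 2466 CPM in NASH vehicle and 524 of 1168 CPM with CDDO-Me, so the sum weighs its markers unequally. The ratios are descriptions with no test.

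Among the 18 chains that bind matrix or platelet ligands, 12 rose with NASH, 1 fell and 5 did not pass, and 4 fell with CDDO-Me while 14 did not pass. Over all tested genes 29.6% were higher and 30% lower with NASH, and 7.24% were lower with CDDO-Me. The 4 that fell with CDDO-Me (Itgav, Itgb5, Itga5 and Itga9) were all among the 12 that rose. NASH vehicle serves in both comparisons with opposite sign, which favours such an overlap. The share of all tested genes with both calls was not counted, so no result is drawn from it.

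Itgav encodes the alpha v chain, and Itgb5 a beta chain known to pair with it. Itgav was at 30.5, 30.4, 27.9 and 25.04 CPM in control, 48.6, 73.3, 60.9 and 76.9 in NASH vehicle, and 39.3, 32.3, 35.0 and 44.5 with CDDO-Me. The CDDO-Me libraries lay between the other groups without touching either. Itgav rose by 1.19 ± 0.14 with NASH (adjusted p = 1e-05), fell by 0.78 ± 0.14 with CDDO-Me (adjusted p = 0.0021), and remained above control by 0.41 ± 0.14 (adjusted p = 0.027). That last difference did not pass without CDDO-Me replicate 4 (0.32, adjusted p = 0.088), CDDO-Me replicate 1 (0.39, adjusted p = 0.062) or control replicate 4 (0.35, adjusted p = 0.079), or on junction reads (0.30, adjusted p = 0.14).

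Itgb5 stood at 102, 104, 97.5 and 94.8 CPM in control, 189, 253, 243 and 292 in NASH vehicle, and 163, 151, 153 and 165 with CDDO-Me. As for Itgav, the 3 groups were apart. It rose by 1.29 ± 0.12 (adjusted p = 1e-06) and fell by 0.63 ± 0.12 with CDDO-Me (adjusted p = 0.0025). The ratio of Itgb5 to Itgav TPM was 10.2 to 11.3 in control, 10.5 to 12.3 in NASH vehicle and 11.3 to 14.3 with CDDO-Me. Of the other chains known to pair with alpha v, Itgb1 was abundant and is described with the matrix receptors, and Itgb3, Itgb6 and Itgb8 were scarce. Itgb3, shared with the platelet chain, ranged from 2.602 to 5.51 CPM over all libraries and passed in no comparison. Itgb6 and Itgb8, the chains best known for releasing TGF-beta, were highest among controls in replicate 3, at 3.29 and 4.22 CPM. Itgb8 rose with NASH by 2.30 ± 0.68, from 0.307 to 4.22 CPM in control to 4.41 to 10.96 CPM (adjusted p = 0.012), and did not pass on junction reads (1.41, adjusted p = 0.11). Itgb6 was at 0 to 3.29 CPM in control, 1.16 to 3.98 CPM in NASH vehicle and 0.737 to 2.47 CPM with CDDO-Me, and did not pass.

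Itgb1, the beta chain that most of the matrix receptors share, was the most abundant member in control livers, and its differences were small and depended on the scaling. It was at 228, 243, 249 and 237 CPM in control, 255, 297, 259 and 273 in NASH vehicle, and 229, 238, 243 and 238 with CDDO-Me. The NASH vehicle libraries lay above the rest. Its log2 fold changes were 0.18 ± 0.09 with NASH (95% interval -0.00 to 0.36, adjusted p = 0.086), -0.19 ± 0.09 with CDDO-Me (-0.38 to -0.01, adjusted p = 0.14), and -0.01 ± 0.09 in CDDO-Me against control (-0.20 to 0.17, adjusted p = 0.9). None of these passed. The first passed on exon reads (0.22, adjusted p = 0.027), on junction reads, with the stricter read filter, and with DESeq2 (0.22, adjusted p = 0.0028) or its size factors (0.22, adjusted p = 0.047). Without the TMM correction it was larger, at 0.81 with library totals (adjusted p = 7.4e-06) and 1.01 on log2(TPM + 0.1) (adjusted p = 4e-06). The second passed with DESeq2 (-0.23, adjusted p = 0.0068), with library totals (-0.35, adjusted p = 0.022) and on log2(TPM + 1) (-0.41, adjusted p = 0.021). The third changed sign and passed with library totals (0.46, adjusted p = 0.001) and on log2(TPM + 0.1) (0.60, adjusted p = 0.00048).

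Receptors of fibronectin and related ligands gave mixed values. Itga5, the alpha chain of the classical fibronectin receptor, was at 31.0 to 39.8 CPM in control, 41.0 to 52.6 CPM in NASH vehicle and 29.6 to 33.9 CPM with CDDO-Me. It rose by 0.40 ± 0.09 (adjusted p = 0.0024) and fell by 0.55 ± 0.09 (adjusted p = 0.0016), with CDDO-Me libraries overlapping control. Itga8, whose product binds nephronectin and is known from stellate and smooth muscle cells, rose by 2.41 ± 0.36 (adjusted p = 0.00016). Its levels were 5.77 to 14.8 CPM in control, 34.8 to 56.6 CPM in NASH vehicle, and 35.3, 15.1, 24.1 and 40.7 with CDDO-Me, and it was 1.66 ± 0.36 above control in the last group (adjusted p = 0.0026). Itga9, which binds tenascin and osteopontin, was at 13.6, 16.3, 19.6 and 16.0 CPM in control, 42.6, 50.8, 46.9 and 55.6 in NASH vehicle and 33.3, 28.4, 28.9 and 33.5 with CDDO-Me. These 3 groups were apart, with a rise of 1.58 ± 0.12 (adjusted p = 2.3e-07) and a fall by 0.66 ± 0.11 with CDDO-Me (adjusted p = 0.0017). Of its reads 39.8% were unique, and Gm2415 overlaps it on the other strand.

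The collagen receptors rose with NASH in 3 of 4 genes and none passed with CDDO-Me. Of all tested genes 29.6% were higher with NASH and 16.6% were called with CDDO-Me, and a list of 4 genes is short beside these shares. Itga1 was at 31.6 to 37.7 CPM in control, 44.5 to 50.7 CPM in NASH vehicle and 44.8 to 51.0 CPM with CDDO-Me. Both NASH groups lay above control, by 0.49 ± 0.08 (adjusted p = 0.00016) and 0.53 ± 0.08 (adjusted p = 0.00013). The second difference was 0.25 on junction reads and did not pass there (adjusted p = 0.12). Of the Itga1 reads 76.5% were unique, and Pelo and Gm49395 overlap the gene on the same strand. Itga2 was almost absent from control livers, at 4, 4, 10 and 0 reads, and had 52 to 165 reads in NASH vehicle and 36 to 111 reads with CDDO-Me. Its fitted log2 fold changes against control were 4.13 ± 0.58 (adjusted p = 4.4e-05) and 3.64 ± 0.58 (adjusted p = 0.00018), and they depend on these few control reads. Itga11 rose by 1.73 ± 0.50 with NASH (adjusted p = 0.0085), from 0.0922 to 0.999 CPM in control to 1.32 to 2.16 CPM, and was at 0.632 to 1.49 CPM with CDDO-Me. Itga10 ranged from 1.68 to 3.88 CPM over all libraries and passed nowhere.

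The laminin receptors split. Itga3 was at 9.39 to 17.7 CPM in control, 19.4 to 33.8 CPM in NASH vehicle and 20.3 to 32.1 CPM with CDDO-Me, which is 1.20 ± 0.23 (adjusted p = 7e-04) and 1.17 ± 0.23 (adjusted p = 0.0012) above control. Itgb4, the partner of Itga6 in epithelial cells, had 5.66 CPM in control replicate 3 and 0.768 to 1.25 CPM in the other control libraries, against 4.502 to 9.31 CPM in NASH vehicle. It rose by 1.72 ± 0.54 (adjusted p = 0.016) and was 1.41 ± 0.54 higher with CDDO-Me than in control (3.90 to 8.95 CPM, adjusted p = 0.048), a call lost in 10 of the 12 fits that left out a library and on exon reads (adjusted p = 0.083). Itga6 rose by 1.31 ± 0.43 (adjusted p = 0.019), from 1.61 to 9.40 CPM in control to 6.83 to 14.7 CPM, and was at 5.62 to 10.4 CPM with CDDO-Me; the rise did not pass without control replicate 1 (adjusted p = 0.056) or with no read filter (adjusted p = 0.052). Of 8 bile duct markers 4 were higher in NASH and 4 did not pass, where 29.6% of all tested genes were higher. None passed with CDDO-Me against NASH vehicle. Krt19 had a negative estimate with NASH (-1.46 ± 1.09, adjusted p = 0.27). The marker sums were 33.0 to 245 CPM in control, 104 to 192 CPM in NASH vehicle and 72.7 to 148 CPM with CDDO-Me. The control range held the whole NASH vehicle range, with control replicate 3 at 245 CPM. The part of bile duct cells in the laminin receptors was not tested.

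Itga7, a laminin receptor chain known from muscle, was the matrix integrin that fell. Its libraries held 10.99, 14.3, 13.1 and 12.03 CPM in control, 7.93, 6.46, 7.90 and 6.07 in NASH vehicle and 5.96, 6.32, 5.33 and 5.88 with CDDO-Me. All NASH libraries were below all control libraries. It fell by 0.83 ± 0.13 with NASH (adjusted p = 0.00013) and was 1.10 ± 0.13 lower with CDDO-Me than in control (log2 fold change -1.10, adjusted p = 2e-05). With library totals in place of TMM the first value was -0.20 (adjusted p = 0.28), and on log2(TPM + 1) it was -0.12 (adjusted p = 0.48). Mettl7b, a far more abundant gene with 187870 reads over the 12 libraries, overlaps Itga7 on the other strand. All 3026 reads of Itga7 were counted as unique to it. Itga2b, the platelet fibrinogen receptor chain, was at 2.23 to 4.43 CPM over all libraries and passed nowhere.

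**Figure D3:**
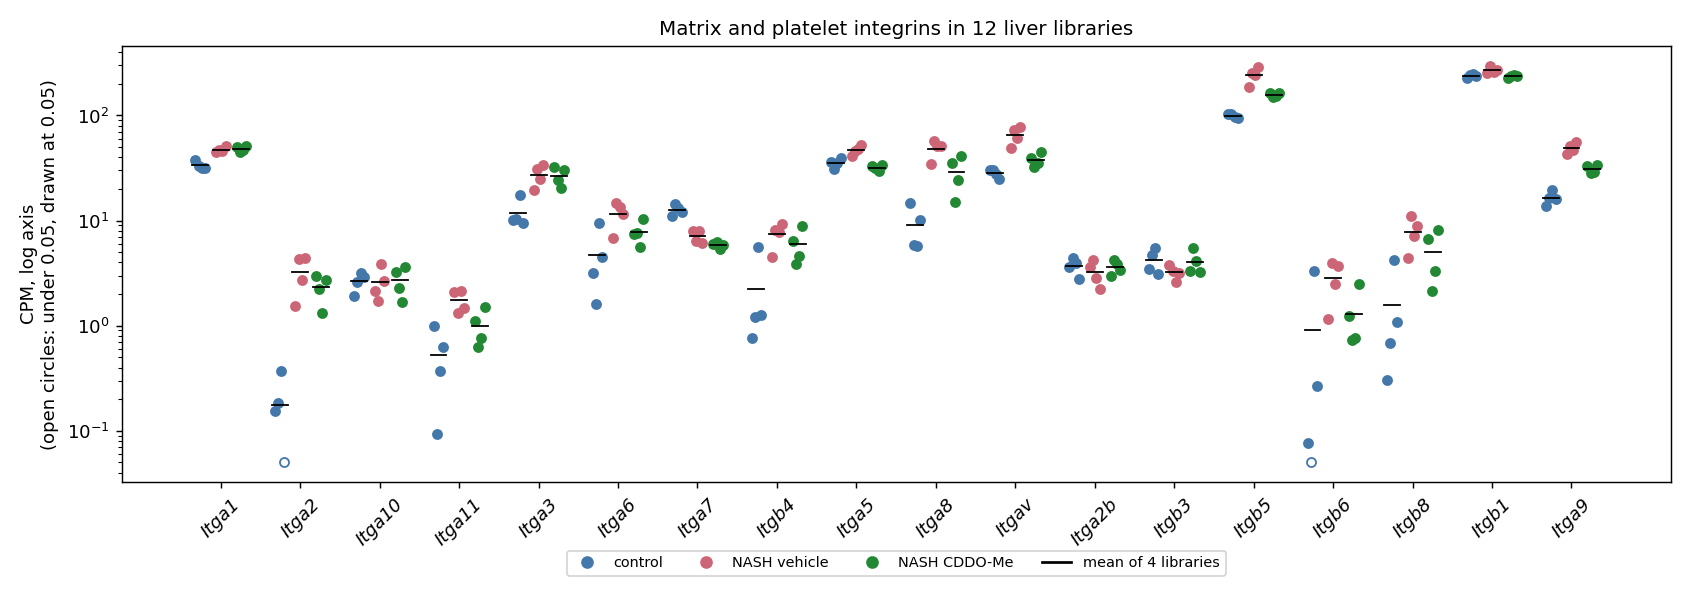
CPM on a log axis of the 18 matrix and platelet integrin chains in 12 liver libraries, with a point for each library and a line at the group mean; open circles stand for values under 0.05. Itgb1 and Itgb5 are the most abundant, Itgav, Itgb5 and Itga9 show 3 separate groups, and control replicate 3 is the high control point for Itgb4, Itgb6 and Itgb8.

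Ranked by TPM within a group, Itgb1 led in control livers at 102 ± 10.6 (mean ± SD, n = 4), followed by Itgb5 at 48.3 ± 3.00 and Alcam at 14.1 ± 1.93. NASH vehicle livers had Itgb5 at 212 ± 46.6 and Itgb1 at 205 ± 19.9, which did not differ beyond their spread, and then Itgb2 at 156 ± 49.4. Itgb2 was ranked 10 of 36 in the controls, at 2.54 ± 1.94 TPM. With CDDO-Me the order was Itgb1 at 155 ± 19.7, Itgb5 at 118 ± 21.2 and Itgb2 at 103 ± 55.9, and the last pair overlapped within their spread.

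Of the 6 tested molecules known from the vessel wall, Icam1, Vcam1 and Sele rose with NASH, Pecam1 fell, and Icam2 and Selp did not pass. Over all tested genes 29.6% were higher and 30% lower in that comparison. Bulk liver RNA does not show which cells carried these transcripts. Icam1 is the main ligand of LFA-1 and Mac-1, and its induction by inflammatory signals through NF-kB is textbook biology. The bases just before its start, at chr9:21015690-21015929, are shown from RefSeq (GRCm38.p6, plus strand) with an NF-kB type motif, GGAAATTCC, in capitals.
Icam1: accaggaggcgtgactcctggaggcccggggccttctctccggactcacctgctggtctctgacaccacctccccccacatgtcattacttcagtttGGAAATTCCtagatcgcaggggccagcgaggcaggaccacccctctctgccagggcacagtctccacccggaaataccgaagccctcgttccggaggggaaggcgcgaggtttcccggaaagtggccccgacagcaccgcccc
Icam1 alone held GGAAATTCC among the 26 member windows, and 0.283% of all windows did, both strands searched.

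Icam1 was at 13.6, 13.01, 10.4 and 9.97 CPM in control, 45.6, 55.7, 52.4 and 51.7 in NASH vehicle, and 37.0, 40.6, 36.8 and 35.7 with CDDO-Me. The 3 groups were tight and separate. It rose by 2.13 ± 0.11 (adjusted p = 1.3e-08), fell by 0.45 ± 0.10 with CDDO-Me (adjusted p = 0.0092), and stayed 1.68 ± 0.11 above control (adjusted p = 1.2e-07). Of the Icam1 reads 80.9% were unique.

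Vcam1, the ligand of VLA-4, was at 5.15, 5.26, 17.8 and 6.04 CPM in control, 53.4, 77.3, 63.2 and 72.6 in NASH vehicle and 35.5, 33.8, 28.2 and 41.2 with CDDO-Me. No group overlapped another, and control replicate 3 stood above the rest of the controls. The rise with NASH was 2.95 ± 0.37 (adjusted p = 4e-05). With CDDO-Me the difference was -0.94 ± 0.34 (95% interval -1.68 to -0.20, adjusted p = 0.081), which did not pass. Without control replicate 3, a library outside that contrast that adds to the shared estimate of spread, the difference was again -0.94 and passed (adjusted p = 0.00028). It also passed in a fit of the 8 NASH libraries alone (-0.95, adjusted p = 0.0011) and with DESeq2 (-0.98, adjusted p = 0.019). Other settings did not pass, with adjusted p up to 0.21. The difference ran from -1.17 to -0.86 over all settings tried.

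Pecam1, the CD31 molecule of endothelial junctions, went the other way. It was at 13.6, 12.8, 19.8 and 17.8 CPM in control, 14.3, 8.55, 8.35 and 11.5 in NASH vehicle, and 16.4, 24.8, 17.6 and 21.4 with CDDO-Me. NASH vehicle overlapped control at its highest library and lay wholly below the CDDO-Me group. Pecam1 fell by 0.59 ± 0.20 with NASH (adjusted p = 0.021) and rose by 0.91 ± 0.20 with CDDO-Me (adjusted p = 0.0077). The fall had the opposite sign with library totals (0.02) and on the TPM scale (0.08 with a pseudocount of 1), and it did not pass without control replicate 3 (-0.47, adjusted p = 0.058) or 4 (-0.54, adjusted p = 0.054) or without NASH vehicle replicate 2 (-0.50, adjusted p = 0.064) or 3 (-0.49, adjusted p = 0.065). The rise with CDDO-Me passed under every setting tried. Sinusoidal endothelial markers moved in the same way: 5 of 8 fell with NASH and 6 of 8 rose with CDDO-Me, and their sum was 245 to 272 CPM in control, 103 to 177 CPM in NASH vehicle and 197 to 297 CPM with CDDO-Me, with none at 0. Of 7 markers of larger vessels 3 fell and 1 rose with NASH, and 2 rose with CDDO-Me. Over all tested genes 30% were lower and 29.6% higher with NASH, and 9.39% were higher with CDDO-Me. The part of sinusoidal and larger vessel cells in Pecam1 was not tested.

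The selectins of endothelium were scarce. Sele (E-selectin) had 7, 2, 0 and 0 reads in control, 31, 21, 24 and 20 in NASH vehicle, and 24, 4, 8 and 14 with CDDO-Me. It rose by 2.78 ± 0.78 on these low counts (adjusted p = 0.007). Selp (P-selectin) ranged from 2.50 to 4.44 CPM in control, 1.30 to 3.28 CPM in NASH vehicle and 1.53 to 2.84 CPM with CDDO-Me. Icam2, an ICAM expressed on resting endothelium, was at 1.57 to 2.61, 1.23 to 1.98 and 2.23 to 3.37 CPM in the same order. Of the Selp reads 67.7% were unique, and Gm16587 and Gm16548 overlap Selp on the other strand. Madcam1, the gut homing ligand of alpha4 beta7, had at most 9 reads in any library and was not tested.

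**Figure D4:**
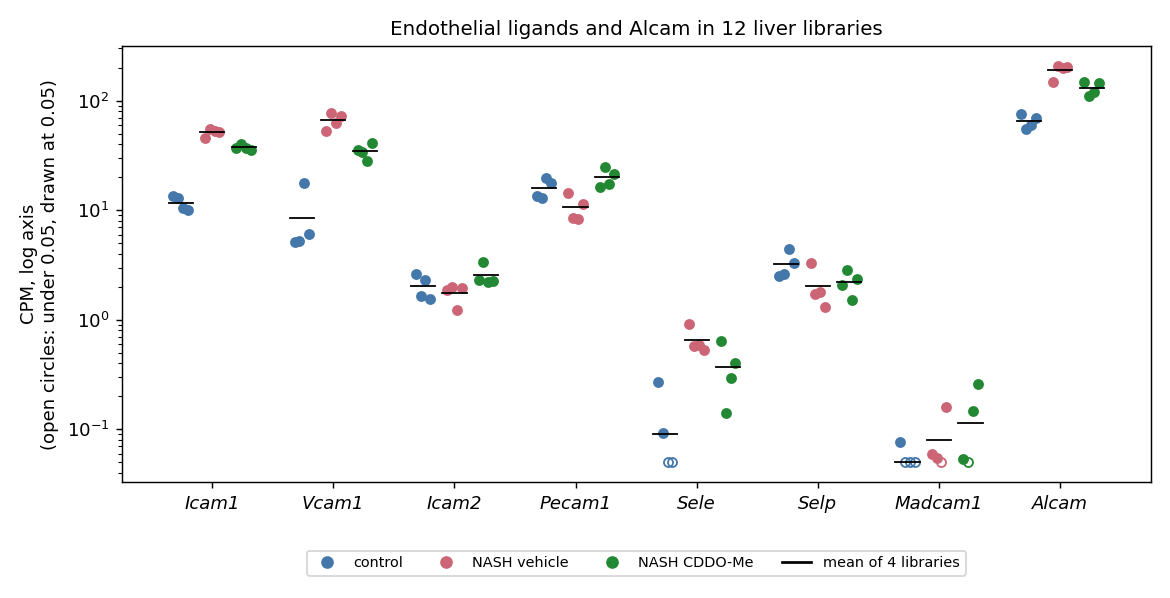
CPM on a log axis of the 7 vessel wall molecules and Alcam in 12 liver libraries, with a point for each library and a line at the group mean; open circles stand for values under 0.05. Icam1 and Alcam form 3 separate groups, Pecam1 is lowest in NASH vehicle, and control replicate 3 is the high control point for Vcam1 at 17.8 CPM.

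Selplg encodes PSGL-1, the leukocyte ligand of P-selectin. It was at 1.46, 1.29, 2.07 and 1.83 CPM in control, 13.95, 23.4, 21.5 and 26.0 in NASH vehicle and 13.3, 10.2, 10.7 and 17.03 with CDDO-Me. NASH and control were far apart, and the NASH groups with and without CDDO-Me overlapped between 13.95 and 17.03 CPM. Selplg rose by 3.67 ± 0.24 (adjusted p = 8.4e-08) and fell by 0.73 ± 0.21 with CDDO-Me (adjusted p = 0.028), a call lost in 6 of the 12 fits that left out a library. Alcam, an immunoglobulin-family adhesion molecule, was at 76.1, 55.4, 60.2 and 68.9 CPM in control, 149, 208, 197 and 202 in NASH vehicle, and 147, 110, 121 and 145 with CDDO-Me. The CDDO-Me libraries lay between the others. Alcam rose by 1.54 ± 0.14 (adjusted p = 1.1e-06) and fell by 0.53 ± 0.14 with CDDO-Me (adjusted p = 0.018), a call lost in 5 of the 12 fits that left out a library (adjusted p up to 0.065).

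Cd44, the hyaluronan receptor, gave different answers from exon and intron reads. Its total gene reads came to 58.9, 93.3, 97.4 and 81.5 CPM in control, 86.0, 98.3, 96.7 and 105 in NASH vehicle, and 69.4, 60.8, 100.1 and 78.0 with CDDO-Me. These groups overlapped, and the fold changes were 0.22 ± 0.17 with NASH (adjusted p = 0.26), -0.32 ± 0.17 with CDDO-Me (adjusted p = 0.2) and -0.10 ± 0.17 in CDDO-Me against control (adjusted p = 0.63). Intron reads made up 80.3% to 96.9% of Cd44 reads in control libraries, 38.2% to 54.1% in NASH vehicle and 43.7% to 74.0% with CDDO-Me. Exon reads alone were at 3.73, 2.86, 19.2 and 3.31 CPM in control, 39.5, 60.8, 53.4 and 60.2 in NASH vehicle and 31.4, 22.3, 26.0 and 44.0 with CDDO-Me. Every NASH library was above every control library by that measure. The exon fold change was 2.92 with NASH (adjusted p = 0.00091), -0.78 with CDDO-Me (adjusted p = 0.33) and 2.14 in CDDO-Me against control (adjusted p = 0.0072). Reads spanning exon junctions gave 2.62 with NASH (adjusted p = 0.011) and 1.62 in CDDO-Me against control, which did not pass (adjusted p = 0.1). What the intron reads of Cd44 stand for was not tested.

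**Figure D5:**
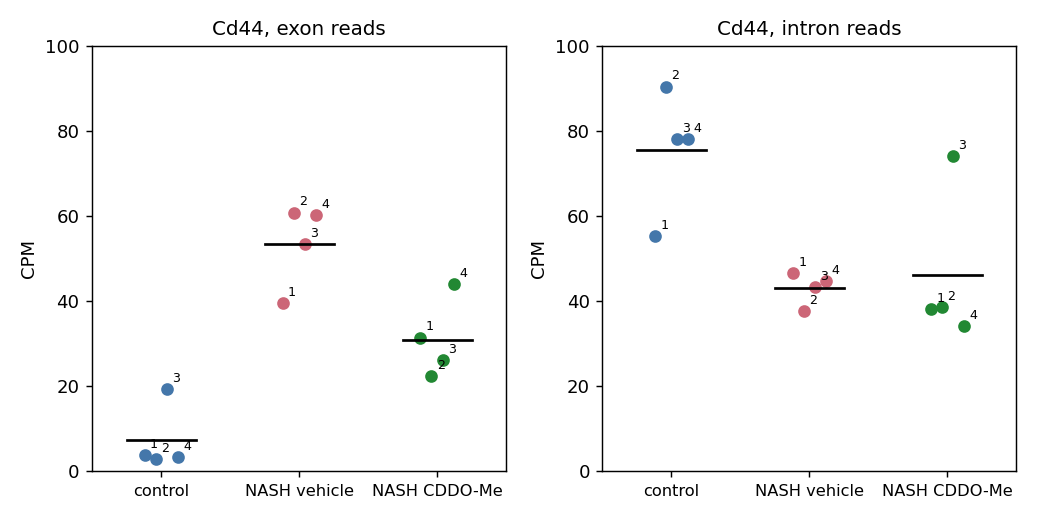
CPM of Cd44 exon reads (left) and intron reads (right) in the 12 liver libraries, on linear axes from 0, with the replicate number beside each point and a line at the group mean. Exon reads are lowest in control and highest in NASH vehicle, while intron reads are at 37.5 to 46.5 CPM in NASH vehicle, below the 55.2 to 90.4 CPM of control.

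Genes that work with the integrins were read from 3 further lists. Of 28 activators and adaptors of the integrin tail, 14 rose, 8 fell and 6 did not pass with NASH, and 2 rose and 10 fell with CDDO-Me. Over all tested genes 29.6% were higher and 30% lower with NASH, and 9.39% higher and 7.24% lower with CDDO-Me, so the shares of this list that fell with NASH and rose with CDDO-Me were near those of all genes. Fermt3, which encodes kindlin-3 of blood cells, rose by 3.16 ± 0.21 with NASH (adjusted p = 9.6e-08) and fell by 0.66 ± 0.18 with CDDO-Me (adjusted p = 0.027). Fyb, a leukocyte adaptor, rose by 3.24 ± 0.16 and fell by 1.09 ± 0.15 with CDDO-Me (adjusted p = 0.00027). Syk, a kinase downstream of leukocyte integrins, and Apbb1ip, which links Rap1 to talin, rose by 3.74 ± 0.25 and 3.77 ± 0.31 and fell by 0.84 ± 0.21 and 0.85 ± 0.27. Rasgrp2, which activates Rap1, moved the opposite way to these, with a fall by 0.53 ± 0.11 with NASH and a rise of 0.85 ± 0.11 with CDDO-Me (adjusted p = 0.00021). Skap2 and Actn4 fell with CDDO-Me by 0.41 ± 0.09 and 0.36 ± 0.09.

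Matrix ligands of the integrins were also mostly higher in NASH. Of 20 tested among 21 listed, 13 rose and 4 fell with NASH, the latter being the fibrinogen genes Fga, Fgb and Fgg and the vitronectin gene Vtn, which hepatocytes secrete. With CDDO-Me 7 fell and 1 rose. Over all tested genes 29.6% were higher and 30% lower with NASH, and 7.24% were lower and 9.39% higher with CDDO-Me. The shares of this list that fell with NASH and rose with CDDO-Me were thus not above those of all genes. The basement membrane genes Nid1 and Col4a1 rose by 2.16 ± 0.09 and 2.42 ± 0.20 with NASH and fell by 0.34 ± 0.09 and 0.88 ± 0.19 with CDDO-Me. Mfge8, a ligand of alpha v integrins, rose by 3.24 ± 0.23 and fell by 0.95 ± 0.21. Fbn1 and Col3a1, of the fibrillar matrix, rose by 3.43 ± 0.31 and 3.51 ± 0.34 and fell by 1.24 ± 0.27 and 1.36 ± 0.31 (adjusted p = 0.0099 and 0.012). Stellate cell markers, a source of such matrix, had 7 of 8 higher with NASH and 2 of 8 lower with CDDO-Me, at sums of 266 to 293, 517 to 771 and 456 to 630 CPM in the 3 groups.

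Of 19 genes of other steps in leukocyte entry 17 were tested, and of these 8 rose and 6 fell with NASH, and 1 rose and 2 fell with CDDO-Me. The share called with CDDO-Me was near the 16.6% of all tested genes, and the share that fell with NASH near the 30% of all genes. Fut7, the enzyme that builds selectin ligands, had at most 0.0922 CPM in control livers and 2.18 to 2.86 CPM in NASH vehicle, and it fell by 1.45 ± 0.40 with CDDO-Me (adjusted p = 0.024). Ceacam1 fell by 1.41 ± 0.15 with NASH, and Stab1, a scavenger receptor of sinusoidal endothelium and macrophages, rose by 1.24 ± 0.15. Esam, a junction molecule of endothelium, matched Pecam1 in direction, with a fall by 0.87 ± 0.17 with NASH and a rise of 1.18 ± 0.17 with CDDO-Me (adjusted p = 0.00052). Cd47 fell by 0.33 ± 0.08 with CDDO-Me (adjusted p = 0.016).

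CDDO-Me livers stayed above control for most leukocyte members. The log2 fold changes against control were 6.20 ± 0.39 for Itgax, 4.69 ± 0.46 for Itgb2, 4.20 ± 0.73 for Itgam, 2.86 ± 0.15 for Itgal, 2.94 ± 0.24 for Selplg, 2.06 ± 0.25 for Itga4 and 1.86 ± 0.39 for Itgb7, with adjusted p from 2.8e-08 (Itgal) to 0.0015 (Itgb7). Vcam1 was 2.01 ± 0.36 above control (adjusted p = 8e-04), Alcam 1.00 ± 0.14, Itga9 0.92 ± 0.12 and Itgb5 0.66 ± 0.12. Pecam1 was at 0.32 ± 0.20 above control and did not pass (adjusted p = 0.19), though it did with library totals (0.78, adjusted p = 0.0054). Itga5 was at -0.15 ± 0.09 (95% interval -0.36 to 0.05) and did not pass (adjusted p = 0.2).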

How the data were processed

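RNA-seq of poly(A) RNA from 12 mouse livers was analysed (75 bp paired-end reads). The authors deposited, for each library, counts of total, unique, exon, intron and junction reads per gene and TPM values made from exon reads and exon length, per the file headers. The genome was GRCm38 per the submitters' processing notes. Aligner, counter and strand setting: not given in the sources used here. Total gene reads (exon plus intron, 28161057 to 33852338 per library) were tested in R 4.3.3 with edgeR 4.0.16: genes kept by group with at least 10 reads (16456 of 41325), TMM scaling, robust quasi-likelihood fit of 3 group means over all 12 libraries, two-sided, Benjamini-Hochberg over all tested genes at 0.05. The SE is the log2 fold change divided by the root of its F value, and the 95% interval uses the fit's degrees of freedom. The members Itgad and Madcam1 were under the read filter. Alternatives used DESeq2 1.42.0 and limma 3.58.1 on log2(TPM + 1) and log2(TPM + 0.1). The scripts were tested on simulated data. The members, gene lists and markers were chosen with earlier results of these data known. Fold changes are given for the key members in every comparison and for others where they passed, and from each further list for up to 4 genes with the lowest p in NASH vehicle against control and in CDDO-Me against NASH vehicle. Promoter sequences are from RefSeq (GRCm38.p6).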

Additional observations from a re-analysis of the deposited data

Results flagged for a closer look

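In 10 of 102 groups of 4 libraries for the tested members, a single library stood apart from the other 3 by Dixon's test (its gap to the nearest library over the group's range exceeded the 95% critical value); chance alone gives about 1 in 20 such groups, and libraries are shared between genes. Control replicate 3 accounted for 5 of the 10. It was the high control for Itgam (3.92 CPM against 0.192 to 0.646), Itga3 (17.7 against 9.39 to 10.3), Itgb4 (5.66 against 0.768 to 1.25), Itgb6 (3.29 against 0 to 0.268) and Vcam1 (17.8 against 5.15 to 6.04). The same library held the most smooth muscle and bile duct marker reads among the controls, and the part of those cells in these values was not tested. Control replicate 4 was low for Itgal (3.58 CPM against 4.51 to 4.57). NASH vehicle replicate 1 was low for Itgam (18.9 CPM against 37.8 to 39.6) and high for Sele (0.924 against 0.530 to 0.589). Icam2 had a low library in NASH vehicle, replicate 3 (1.23 CPM against 1.88 to 1.98), and a high library with CDDO-Me, replicate 2 (3.37 CPM against 2.23 to 2.31).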

How the results depend on the processing

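Across 66 named fold changes, 1550 of 1647 values under an alternative kept their direction and their side of the threshold, 53 no longer passed, 26 newly passed and 18 changed sign; the causes were not tested. With library totals in place of TMM the median of all genes moved from -0.01 to 0.62 in NASH vehicle against control, with 9908 genes higher and 1326 lower in place of 4874 and 4945, and log2(TPM + 1) gave 0.51, 10905 and 873. In CDDO-Me against NASH vehicle those settings gave 926 higher and 1589 lower, and 779 and 2607, in place of 1545 and 1191; in CDDO-Me against control 8678 and 1125, and 8845 and 812, in place of 4317 and 3881. Members lower in NASH vehicle numbered 0 with library totals, log2(TPM + 1) and log2(TPM + 0.1), and 1 without control replicate 3 and CDDO-Me replicate 4 together; leaving out each library in turn gave 1 to 3, with 1 without control replicate 3 or 4 or NASH vehicle replicate 2 or 3. Members lower with CDDO-Me against NASH vehicle numbered 14 on log2(TPM + 1). Leaving out each library gave 1564 to 3425 genes called in that comparison (1699 and 1569 without NASH vehicle replicate 3 or 4, 1595 and 1564 without CDDO-Me replicate 2 or 3) against 2736, and 6 to 10 members lower; without both doubted libraries 4215 genes were called. CDDO-Me against control had 5300 genes called on junction reads, against 8198, and 2 members lower on exon reads. Junction reads were added as an alternative after the Cd44 intron reads had been seen. Pecam1 in NASH vehicle against control was 0.02 with library totals, and 0.08 and 0.10 on log2(TPM + 1) and log2(TPM + 0.1). Itgb1 in CDDO-Me against control, at -0.01, came to 0.46 with library totals, 0.59 and 0.60 on the TPM scales, 0.03 on exon reads, 0.01 with a filter of 50 reads in 4 libraries, and 0.00 with no filter, on junction reads, and without both doubted libraries; leaving out each library gave -0.04 to 0.00 (0.00 without control replicate 3 or CDDO-Me replicate 1). Cd44 in the same comparison came to 0.36 with library totals, 2.14 on exon reads, 1.62 on junction reads, and 2.37 and 3.05 on the TPM scales. The labels do not say whether the replicate numbers shared by the groups pair the libraries. No pairing was seen: same-number correlations ran from -0.22 to 0.19 and 0 of 12 libraries correlated best with its own number. Such correlations cannot exclude a link between libraries. A replicate block gave 24 members higher and 2 lower, 1 and 9, and 19 and 1, with 9472, 2177 and 7722 genes called. Depth limits Itgad, Madcam1, Sele and the control values of Itga2 and Itgb6, which rest on few reads.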
